A study of Rattus norvegicus with 18 samples.

Results

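Acute phase genes in rat heart allografts are described here for 7 listed genes, Saa3, Hp, Orm1, Lbp, Ptx3, Serpina3n and A2m. A gene was represented by the probe set with the highest mean signal over all 18 arrays among the probe sets that carry its symbol alone. By this rule 6 of the 7 genes had a probe set, of 14217 genes with a probe set in all, and each of the 6 had exactly 1. No probe set here carries the symbol Ptx3 alone, so that gene, which encodes a long pentraxin, has no values. The genes were chosen by their treatment differences on the same heart arrays, where earlier results showed most of them lower in the treated grafts. Their treatment differences in heart are therefore given as a description with no test. The word "lowered" did not hold for A2m, which was at or above the untreated level on average and higher in both treated grafts on day 7.

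The acute phase response is the change in plasma proteins that follows injury, infection or inflammation. The liver is its main source. Interleukin 6 acts through its receptor, JAK kinases and STAT3. Interleukin 1 and tumour necrosis factor act through NF-kB. Together with C/EBP transcription factors these pathways raise the transcription of acute phase genes in hepatocytes. Several of the genes are also transcribed outside the liver, in macrophages, neutrophils, fat and stromal cells. In the rat, alpha-2-macroglobulin and alpha-1-acid glycoprotein are strong acute phase proteins.

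Hearts of adult male Wistar Furth (WF) rats were placed in the abdomen of ACI recipients, a strain combination that differs in the class I antigen RT1.A. Recipients were left untreated, received cyclosporine (a calcineurin inhibitor) by gavage at 10 mg/kg/day from day 0 to day 2, or received the same cyclosporine course plus 1 mg/kg of the allochimeric class I peptide [a1h1/u]-RT1.Aa through the portal vein during the transplant operation. The cyclosporine dose is described as sub-therapeutic, and no portal injection is described for the other recipients, so peptide and injection cannot be told apart. RNA of the graft and RNA of T cells was measured on days 1, 3 and 7, with 1 array for each combination of tissue, treatment and day. All samples are labelled Wistar Furth and male, T cells included, and neither the organ of the T cells nor pooling or sharing of animals is stated. There was no graft without surgery and no syngeneic graft among the samples.

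The 9 heart arrays had median signals of 210 to 231 and the 9 T cell arrays of 195 to 210. The cardiac troponin gene Tnnt2 read 10921 to 13486 in hearts and 5 to 24 in T cells, and Cd3e, a CD3 chain, read 8328 to 9938 in T cells and 73 to 5128 in hearts. The T cell array of untreated recipients on day 1 stood apart from the other 8. Its summed signal of 9 neutrophil markers was 40784, against 1404 to 3839 on the other T cell arrays, and all 9 markers were highest there. Its summed signal of 10 T cell markers was the lowest, 51707 against 65539 to 74995. Results in T cells are given with and without this array.

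RefSeq promoter windows on build GRCr8 were given for 3 of the 6 measured genes, Saa3, Orm1 and Serpina3n. They are shown because these genes were among those highest together in the untreated graft of day 3, and because the motifs of the interleukin 6 pathway can be looked up in them. Each window runs 5′ to 3′ on the gene's strand, from 250 bases before the annotated gene start to 50 bases from it onward for Orm1 and Serpina3n, and from 248 before to 52 onward for Saa3. Saa3 lies at chr1:106354986-106358432 and its window at chr1:106358381-106358680 on the minus strand. Orm1 lies at chr5:81788509-81791661 and its window at chr5:81788259-81788558 on the plus strand. Serpina3n lies at chr6:129088392-129095950 and its window at chr6:129088142-129088441 on the plus strand. Capitals mark matches to the motifs named after the sequences.
Saa3: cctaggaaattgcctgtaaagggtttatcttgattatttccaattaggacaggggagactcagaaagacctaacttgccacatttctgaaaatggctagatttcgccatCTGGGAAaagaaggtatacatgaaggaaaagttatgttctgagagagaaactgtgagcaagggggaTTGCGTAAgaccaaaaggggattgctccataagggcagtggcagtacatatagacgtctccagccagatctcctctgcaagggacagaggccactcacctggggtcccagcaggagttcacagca
Orm1: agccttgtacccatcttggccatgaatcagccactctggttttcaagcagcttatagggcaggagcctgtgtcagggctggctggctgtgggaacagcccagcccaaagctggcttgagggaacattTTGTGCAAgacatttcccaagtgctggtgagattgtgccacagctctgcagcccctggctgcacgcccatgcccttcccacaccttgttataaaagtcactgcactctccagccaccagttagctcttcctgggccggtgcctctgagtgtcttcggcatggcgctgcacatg
Serpina3n: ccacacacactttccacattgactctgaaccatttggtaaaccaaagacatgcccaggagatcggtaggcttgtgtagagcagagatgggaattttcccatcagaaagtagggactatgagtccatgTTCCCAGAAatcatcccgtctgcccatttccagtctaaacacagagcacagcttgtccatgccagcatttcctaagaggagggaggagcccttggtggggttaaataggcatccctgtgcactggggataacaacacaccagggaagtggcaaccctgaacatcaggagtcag

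Both strands were searched for the C/EBP motif TTGCNNAA, the type 2 interleukin 6 response element CTGGGAA, the STAT motif TTCNNNGAA and the NF-kB motif by its consensus. The Saa3 window holds CTGGGAA starting 139 bases before the gene start and the C/EBP match TTGCGTAA starting 73 bases before it. The Orm1 window holds a C/EBP match on the minus strand, printed above as TTGTGCAA, 123 bases before the start. In the Serpina3n window the STAT match TTCCCAGAA begins 123 bases before the start and overlaps a minus strand match of CTGGGAA. None of the 3 windows holds the NF-kB consensus searched. Over 33469 promoter windows of the same length, 10.6% hold the C/EBP motif, 11.3% the interleukin 6 response element, 8.87% the STAT motif and 7.51% the NF-kB motif. A match describes letters only, and factor binding was not measured.

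Saa3 encodes an inflammatory serum amyloid A, a lipid-binding apolipoprotein made outside the liver as well. Its intensity in the untreated grafts was 338, 1594 and 560 on days 1, 3 and 7. In the cyclosporine grafts it was 96.3, 272 and 290. In the grafts with cyclosporine plus peptide it was 273, 192 and 713. The untreated graft of day 3 was the highest of the 9, at 2.23 times the next, and the day 7 graft with peptide came second. On day 3 Saa3 was 5.87-fold lower with cyclosporine and 8.32-fold lower with the peptide added. Fold values between single arrays are ratios of the intensities. Log2 differences, and the bounds given as at least a fold, are on the scale of log2(intensity + 16). On day 7 the direction differed between the treated grafts, with log2 differences of -0.91 for cyclosporine and 0.34 for cyclosporine plus peptide.

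Hp encodes haptoglobin, which binds free haemoglobin for uptake through the macrophage receptor CD163. Its intensity was 386, 895 and 172 on days 1, 3 and 7 in untreated grafts. With cyclosporine it was 174, 285 and 110. With the peptide added it was 165, 260 and 234. Both treated grafts lay below the untreated one on days 1 and 3, by 3.14-fold and 3.44-fold on day 3, while the groups overlapped on day 7. Hp lies at chr19:54449151-54453701.

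Orm1 encodes alpha-1-acid glycoprotein, a plasma carrier of small lipophilic molecules. Its intensity was 287, 541 and 152 in untreated grafts on days 1, 3 and 7. With cyclosporine it was 136, 156 and 106, and with the peptide added 187, 273 and 104. It was the only one of the 6 genes below the untreated graft in both treated grafts on each of the 3 days. The day 3 difference was 3.47-fold with cyclosporine and 1.98-fold with the peptide added. On day 7 only the untreated graft was above the 40th percentile of its array, which ran from 135 to 145 in hearts, so little is measured of Orm1 there.

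Lbp encodes the lipopolysaccharide binding protein, which hands bacterial lipopolysaccharide to CD14 and TLR4. Its intensity was 1567, 4733 and 1497 in untreated grafts on days 1, 3 and 7. With cyclosporine it was 1103, 4287 and 1077. With the peptide added it was 1363, 2856 and 1827. The 3 grafts of day 3 were the 3 highest of the 9, whatever the treatment. The day 3 difference from the untreated graft was 1.10-fold with cyclosporine and 1.66-fold with the peptide added. Lbp lies at chr3:167373786-167400941.

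The remaining genes encode protease inhibitors. Serpina3n, a serpin related to human alpha-1-antichymotrypsin, had intensities of 1560, 3981 and 1196 in untreated grafts on days 1, 3 and 7. With cyclosporine they were 1639, 1436 and 1216, and with the peptide added 1189, 1275 and 1232. Its single high value was the untreated graft of day 3, at 2.43 times the next array, and the other 8 grafts spanned only 1189 to 1639. The day 3 difference was 2.77-fold with cyclosporine and 3.12-fold with the peptide added.

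A2m encodes alpha-2-macroglobulin, which traps proteases of all classes and is cleared through the receptor LRP1. Its intensity was 119, 639 and 1289 in untreated grafts on days 1, 3 and 7. With cyclosporine it was 92.0, 596 and 2013, and with the peptide added 98.2, 524 and 2031.5. The 9 grafts separated by day without overlap, and all 3 day 1 readings lay below the 40th percentile of their arrays, so day 1 gives only an upper limit. On day 7 both treated grafts were higher than the untreated one, by 1.56-fold and 1.58-fold. A2m lies at chr4:156570163-156619870.

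**Figure D1:**
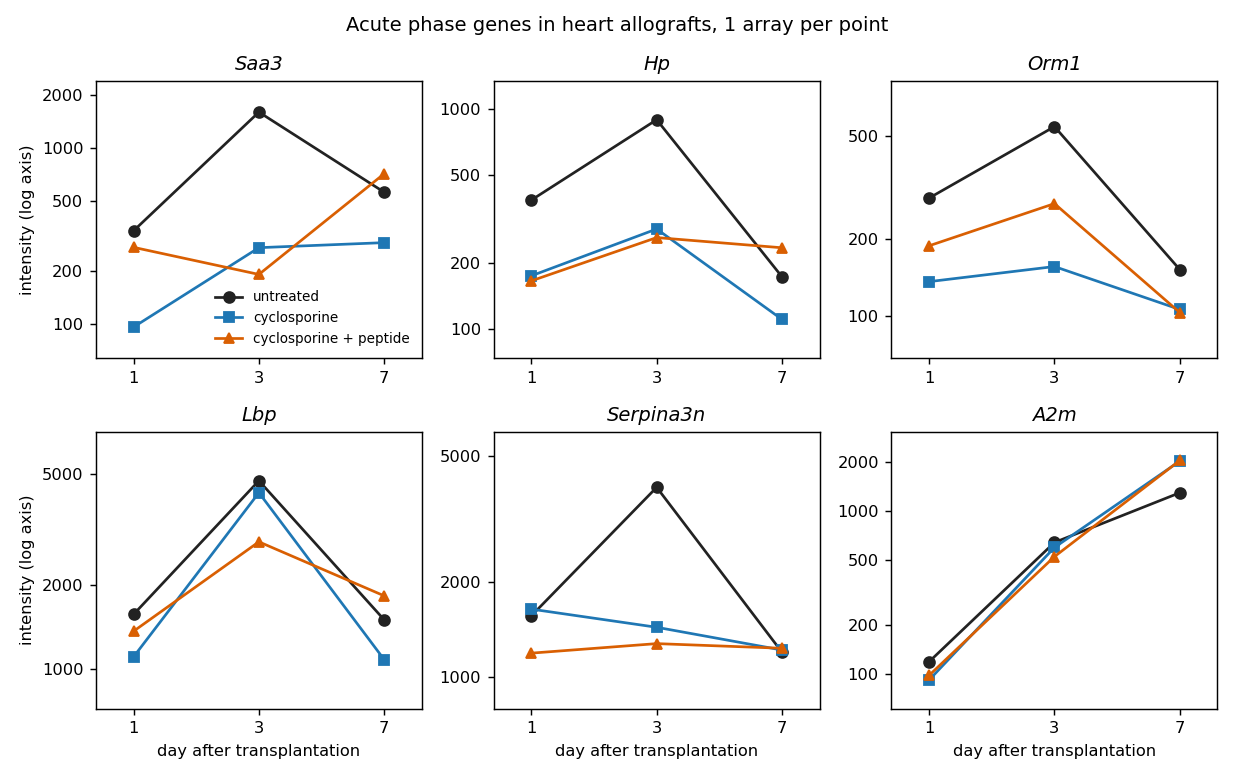
Intensity of the 6 measured acute phase genes in heart allografts (log axis) against the day after transplantation, with days 1, 3 and 7 drawn at equal spacing. Each point is 1 array and lines join the arrays of 1 treatment; for Saa3, Hp, Orm1, Lbp and Serpina3n the untreated day 3 graft is the highest point, while A2m climbs to 1289 to 2031.5 on day 7 in all 3 groups.

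Taking the 6 genes together, the difference from the untreated graft was widest on day 3. On day 1, both treated grafts read below the untreated one for 5 of 6 genes, against 36.6% of the 19737 probe sets that passed the filter on low signal (above the 40th percentile of the array in at least 3 of the 9). On day 3 it was 6 of 6, against 40.0%. On day 7 it was 1 of 6, against 40.8%, while Serpina3n and A2m were higher in both, Serpina3n by only 0.02 and 0.04 on the log2 scale. The median log2 difference of the 6 genes for cyclosporine was -0.75, -1.53 and -0.46 on days 1, 3 and 7. For cyclosporine plus peptide it was -0.34, -1.29 and 0.31, and the medians over all 19737 probe sets lay within 0.024 of 0. These counts describe the choice of the genes and nothing is read from them. All treated grafts were set against the same untreated arrays, so both comparisons share them.

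**Figure D2:**
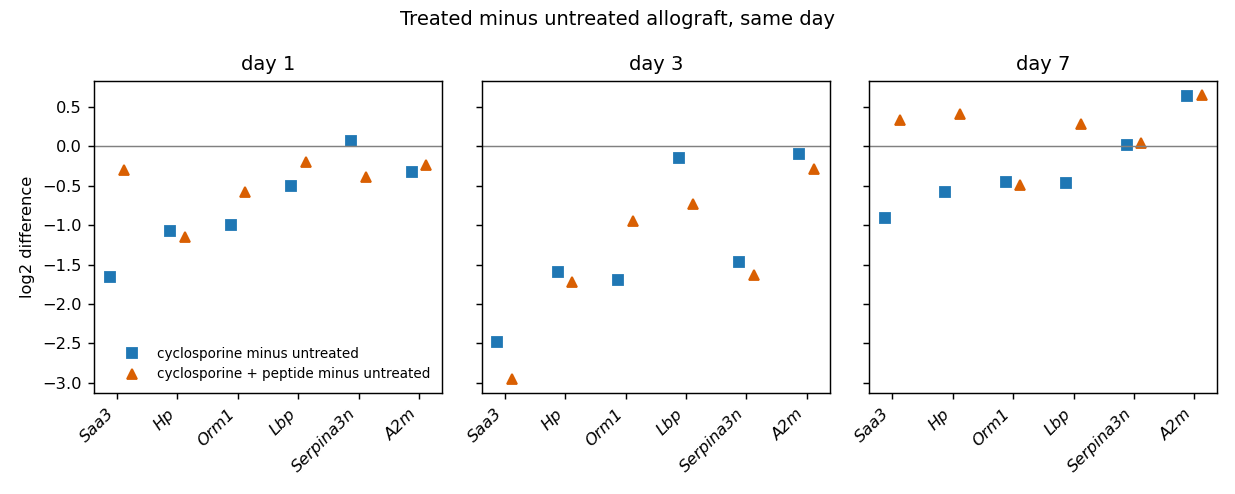
Log2 difference of each treated graft from the untreated graft of the same day, for the 6 genes, with 1 array against 1 array per point and days 1, 3 and 7 in separate panels. On day 3 all 12 points lie below 0, from -0.10 to -2.96, and on day 7 the points of A2m lie at 0.64 and 0.65.

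Averaged over the 3 days, the fitted log2 difference for cyclosporine minus untreated was -1.68 ± 0.52 for Saa3 (SE of the fit, n = 3 differences, here and below). It was -1.08 ± 0.33 for Hp, -1.05 ± 0.20 for Orm1, -0.46 ± 0.30 for Serpina3n, -0.37 ± 0.21 for Lbp and 0.07 ± 0.19 for A2m. For cyclosporine plus peptide minus untreated the values were -0.97 for Saa3, -0.82 for Hp, -0.67 for Orm1, -0.66 for Serpina3n, -0.21 for Lbp and 0.04 for A2m, with the same SEs. Much of this came from 1 array. Without the untreated day 3 heart array, the values for cyclosporine were -0.99 for Saa3, -0.73 for Hp, -0.82 for Orm1, -0.30 for Lbp, 0.04 for Serpina3n and 0.20 for A2m. Without it, the values for cyclosporine plus peptide were -0.27 for Saa3, -0.47 for Hp, -0.44 for Orm1, -0.14 for Lbp, -0.16 for Serpina3n and 0.17 for A2m. That array was the highest of the 9 for 5 of the 6 genes, as it was for 9.46% of all probe sets passing the filter.

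Peptide added to cyclosporine was set against cyclosporine alone in the same way. The mean log2 difference was 0.72 for Saa3, 0.38 for Orm1, 0.26 for Hp, 0.16 for Lbp, -0.03 for A2m and -0.20 for Serpina3n. For Saa3 the sign changed with the day, at 1.36 on day 1, -0.47 on day 3 and 1.25 on day 7. Over all probe sets, limma called 0 of 19737 (0%) in each of the 3 treatment comparisons in heart. At an unadjusted p below 0.05 there were 2288 probe sets for cyclosporine, 3156 for cyclosporine plus peptide and 954 between the treated groups.

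How the genes moved over time in the grafts was not used to choose them and was tested. The untreated day 3 array, however, entered both the treatment differences that chose the genes and the day 3 means, so the day 3 comparisons are not fully separate from the choice. A2m passed the filter on low signal through days 3 and 7, so its calls against day 1 are read only with the bounds below. Lbp and A2m rose from day 1 to day 3, and afterwards Hp, Orm1 and Lbp fell while A2m kept rising. From day 1 to day 3 Lbp rose by 1.53 ± 0.21 (adjusted p = 0.00344, limma with Benjamini-Hochberg adjustment over all probe sets, as for every adjusted p here). A2m rose to at least 3.95-fold the day 1 level, with each day 1 array set to its 40th percentile (adjusted p = 0.00115 from the measured values). The other 4 did not pass, with Saa3 at 1.02 ± 0.52 (adjusted p = 0.177), Hp at 0.82 ± 0.33 (0.103), Orm1 at 0.52 ± 0.20 (0.0895) and Serpina3n at 0.42 ± 0.30 (0.33). In this comparison 2 of 6 genes were called, against 27.5% of all probe sets, 14.6% higher and 12.9% lower. That split was 2883 higher and 2546 lower as deposited, and 2086 higher and 3837 lower with each array centred on its median, with Lbp and A2m called under both. The day 3 mean contains the untreated day 3 array, and without it Serpina3n was at -0.077 and Saa3 at 0.33, neither called.

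From day 3 to day 7 Lbp fell by 1.42 ± 0.21 (adjusted p = 0.000756), and stood 0.11 ± 0.21 above its day 1 level (adjusted p = 0.675). Orm1 fell by 1.16 ± 0.20 (adjusted p = 0.0016), or at least 1.91-fold with the day 7 arrays held at or above their 40th percentile. Against day 1 it was at -0.64 ± 0.20 on day 7 (adjusted p = 0.0216), or at least 1.33-fold lower by that bound. Both adjusted p come from the measured values, with Orm1 above that percentile on only 1 of 3 day 7 hearts. Hp fell by 1.22 ± 0.33 (adjusted p = 0.0142), a call lost without the untreated day 3 array (-0.87, adjusted p = 0.0577). A2m rose by a further 1.55 ± 0.19 (adjusted p = 0.000247), a step with signal on both sides. On day 7 it stood at least 11.5-fold above day 1 by the same bound (adjusted p = 2.88e-06 from the measured values). Serpina3n at -0.67 ± 0.30 (adjusted p = 0.0914) and Saa3 at 0.14 ± 0.52 (0.835) did not pass. The count was 4 of 6 genes, 1 higher and 3 lower, against 56.4% of all probe sets, 26.9% higher and 29.4% lower.

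Between days 1 and 7, 2 of 6 genes were called, A2m higher and Orm1 lower, each with low signal at one end, against 64.7% of all probe sets, 30.9% higher and 33.8% lower. Saa3 was at 1.16 ± 0.52 (adjusted p = 0.0815), Hp at -0.41 ± 0.33 (0.309) and Serpina3n at -0.25 ± 0.30 (0.484). Without the untreated day 3 array Saa3 passed at the same difference (adjusted p = 0.0211), as did Serpina3n at -0.25 (adjusted p = 0.0476), so that 4 of 6 were called. Of all probe sets 31.3% were then called higher and 34.6% lower. The differences did not move, only the fitted spread and the probe sets tested. The Orm1 call was lost without the cyclosporine plus peptide arrays (-0.58, adjusted p = 0.13).

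**Figure D3:**
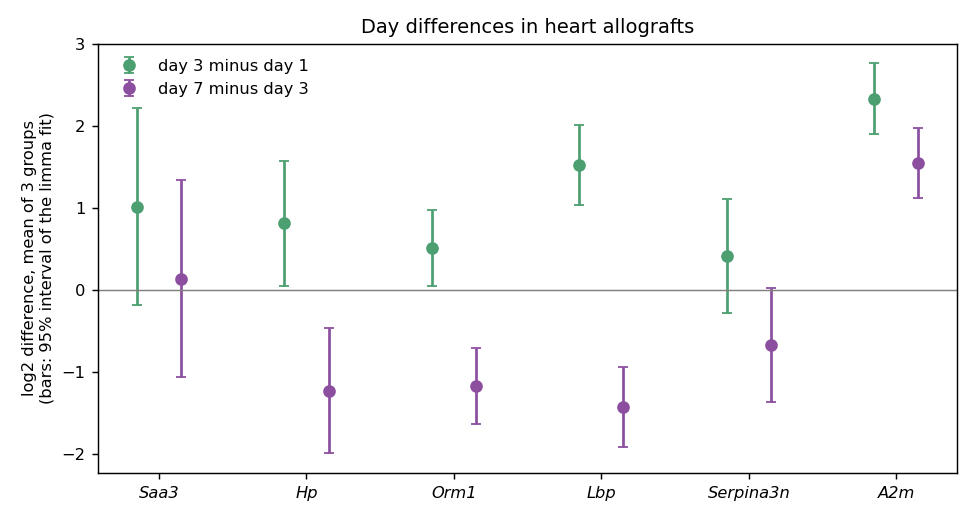
Fitted log2 differences between days in heart allografts, day 3 minus day 1 and day 7 minus day 3, for the 6 genes. Points are means of 3 same-treatment differences and bars the 95% interval of the limma fit; the intervals, not adjusted for the number of probe sets, exclude 0 in both comparisons for Hp, Orm1, Lbp and A2m, and A2m is the 1 gene with both intervals above 0.

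The pathways that act upstream of acute phase genes were followed on the same arrays, where the median of all probe sets was -0.002 from day 1 to day 3 and -0.004 from day 3 to day 7. Of 15 tested genes of the interleukin 6 pathway, 7 rose and 2 fell from day 1 to day 3 (median 0.22), where 14.6% of all probe sets were called higher and 12.9% lower. With the untreated day 3 array left out it was 3 and 2 of 15, against 8.33% and 6.55%, and Cebpb (0.15, adjusted p = 0.118) and Pim1 (0.38, adjusted p = 0.11) were among the calls lost. Il6 itself read 641, 915 and 190 in untreated grafts on days 1, 3 and 7, 305, 520 and 102 with cyclosporine, and 464, 820 and 106 with the peptide added. It rose by 0.68 ± 0.13 to day 3 (adjusted p = 0.00862) and then fell by 2.38 ± 0.13 to day 7 (adjusted p = 7.59e-06), and its 3 grafts of day 7 were the 3 lowest. On day 7 only the untreated graft was above the 40th percentile of its array for Il6, so the size of that fall is uncertain. Cebpa and Cebpb, which encode C/EBP factors, rose to day 3 by 0.74 ± 0.14 and 0.25 ± 0.07, as did the kinase genes Tyk2 (0.54 ± 0.09) and Pim1 (0.46 ± 0.12). The leukaemia inhibitory factor receptor gene Lifr fell by 0.60 ± 0.10 and Stat3 by 0.33 ± 0.08. Socs3, a feedback inhibitor of the pathway, was at -0.13 ± 0.10 (adjusted p = 0.365) and Cebpd at 0.09 ± 0.17 (adjusted p = 0.733).

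From day 3 to day 7, 9 of the 15 interleukin 6 pathway genes rose and 4 fell (median 0.29), against 26.9% and 29.4% of all probe sets. Tyk2 rose by 0.92 ± 0.09, Pim1 by 0.71 ± 0.12, Bcl3 by 0.65 ± 0.15 and Cebpa by 0.65 ± 0.14, with smaller rises of Cebpb (0.37 ± 0.07) and Stat3 (0.29 ± 0.08). Besides Il6, the falls were those of Lifr (-0.50 ± 0.10), the cytokine gene Osm (-0.46 ± 0.10) and the shared receptor chain gene Il6st (-0.44 ± 0.09). Lifr lay below the 40th percentile of the array in every day 7 graft. Socs3 (-0.10 ± 0.10, adjusted p = 0.432) and Cebpd (-0.06 ± 0.17, adjusted p = 0.799) again did not pass.

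Of the 19 genes of the interleukin 1, tumour necrosis factor and NF-kB list, 4 rose and 0 fell from day 1 to day 3 (median 0.08). Of all probe sets 14.6% rose and 12.9% fell. The 4 genes were the receptor gene Tnfrsf1b (0.66 ± 0.16), Nfkbiz (0.60 ± 0.17), the feedback regulator Tnfaip3 (0.53 ± 0.16) and the adaptor Myd88 (0.25 ± 0.07). Only Nfkbiz of the 19 passed without the untreated day 3 array, at 0.33 (adjusted p = 0.0446), where 8.33% of all probe sets rose and 6.55% fell. Tnfrsf1b (0.50, adjusted p = 0.0765), Tnfaip3 (0.37, adjusted p = 0.179) and Myd88 (0.18, adjusted p = 0.12) lost their calls. Il1b was at 0.56 ± 0.20 with all arrays (adjusted p = 0.0727). From day 3 to day 7, 12 rose and 2 fell (median 0.44), against 26.9% and 29.4% of all probe sets. Among the rises were Il1rn, the receptor antagonist, at 1.64 ± 0.14, Tnf at 1.59 ± 0.21, Tnfrsf1b at 1.55 ± 0.16 and Tnfaip3 at 1.48 ± 0.16. Il1b rose by 0.58 ± 0.20 (adjusted p = 0.0365). The decoy receptor gene Il1r2, also a neutrophil marker, fell by 2.67 ± 0.25 and the signalling receptor gene Il1r1 by 0.95 ± 0.11.

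Other acute phase genes, 28 listed and 17 tested, held both rises and falls. From day 1 to day 3, 7 rose and 1 fell (median 0.46), against 14.6% and 12.9% of all probe sets. Among the rises were the fibrinogen chain gene Fgg at 1.52 ± 0.24 and the haem-binding Hpx at 1.34 ± 0.40. On day 1 Hpx read 52.9 to 78.0, below the 40th percentile of every array. Fgg exceeded that percentile on day 1 only with the peptide added. Hmox1, which degrades haem, rose by 0.82 ± 0.16 and the copper carrier Cp by 0.73 ± 0.14. Hamp, which encodes the iron hormone hepcidin, fell by 0.84 ± 0.19. With the untreated day 3 array left out 5 rose and 0 fell, against 8.33% and 6.55% of all probe sets. Hpx was then at 0.73 (adjusted p = 0.076) and Hamp at -0.72 (adjusted p = 0.0704). From day 3 to day 7, 5 rose and 8 fell (median -0.22), against 26.9% and 29.4% of all probe sets. The complement gene C3 rose by 2.25 ± 0.51, Il1rn, which is on this list too, by 1.64 ± 0.14, and Cd14 by 0.90 ± 0.11. The calgranulin genes S100a9 (-2.65 ± 0.31) and S100a8 (-2.43 ± 0.23), both neutrophil markers, fell. So did Fgg (-2.60 ± 0.24), which read 31.1 to 59.1 on day 7, below the 40th percentile of every array. Lcn2 fell too (-1.47 ± 0.43, adjusted p = 0.0198), but was no longer called without the untreated day 3 array (-0.97, adjusted p = 0.0746). Tnfaip6, which encodes the hyaluronan-binding protein TSG-6, was at 0.12 ± 0.08 to day 3 (adjusted p = 0.295) and then fell by 1.10 ± 0.08. Lcn2 encodes the siderophore-binding lipocalin and read 5378, 12652 and 1735 in untreated grafts, 2450, 4779 and 1589 with cyclosporine, and 4403, 3266 and 3299 with the peptide added, so it was highest in the untreated graft of day 3 like 5 of the 6 genes.

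Day 7 minus day 1 gives the end point of the same lists. Of the interleukin 6 pathway 8 of 15 rose and 3 fell (median 0.27), of the interleukin 1 and NF-kB list 14 of 19 rose and 3 fell (median 0.69), and of the other acute phase genes 7 of 17 rose and 6 fell (median -0.04), where the median of all probe sets was -0.02 and 30.9% rose and 33.8% fell. C3 rose by 3.64 ± 0.51 and Hpx by 1.58 ± 0.40, whereas Hamp fell by 2.09 ± 0.19 and Fgg by 1.08 ± 0.24. Hpx lay below the 40th percentile of the array in every day 1 graft. Fgg did so in every day 7 graft and, on day 1, in the untreated and cyclosporine grafts. The sizes of these changes of Hpx and Fgg are therefore uncertain. Il6 fell by 1.70 ± 0.13, Il1b rose by 1.14 ± 0.20 and Tnfaip6 fell by 0.98 ± 0.08.

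Receptors and binding partners of the proteins that the listed genes encode, Ptx3 included, rose broadly to day 3. Of 17 tested genes 14 were higher and 0 lower (median 0.54), against 14.6% and 12.9% of all probe sets. Without the untreated day 3 array 10 of 17 were higher, against 8.33%. Cd163, the haptoglobin and haemoglobin receptor of macrophages, rose by 1.13 ± 0.14 and Scarb1, a lipoprotein receptor that also binds serum amyloid A, by 0.90 ± 0.17. From day 3 to day 7, 9 rose and 4 fell (median 0.43), against 26.9% and 29.4% of all probe sets. Granzyme B (Gzmb), a serine protease of cytotoxic lymphocytes, rose by 3.11 ± 0.13 and the complement genes C1qb, C1qc and C1qa by 1.88 ± 0.08, 1.73 ± 0.07 and 1.59 ± 0.06. Cd36 fell by 1.39 ± 0.10, Ager by 0.73 ± 0.14 and Cd163 by 0.55 ± 0.14. Of 8 negative acute phase genes, whose plasma proteins fall in inflammation, 4 were tested. Igf1 rose by 1.09 ± 0.16 to day 3 and then fell by 0.60 ± 0.16, and Ttr fell by 0.35 ± 0.06 from day 3 to day 7.

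With treatment, described without a test, 15 of the 17 other acute phase genes were lower in both treated grafts on day 3, 12 on day 1 and 6 on day 7, while 2, 4 and 4 were higher in both. Of all probe sets 40.0% were lower in both on day 3, 36.6% on day 1 and 40.8% on day 7. The share higher in both was not computed, so counts higher in both, here and below, have no share beside them. Their day 3 medians were -0.62 for cyclosporine and -0.66 for cyclosporine plus peptide. Of the 19 interleukin 1 and NF-kB genes 17 were lower in both on day 3, 16 on day 1 and 7 on day 7, and 0, 0 and 10 were higher. Of the 15 interleukin 6 pathway genes 10, 9 and 7 were lower in both, and 1, 2 and 7 higher. The fitted means for cyclosporine were -0.89 for Lcn2, -0.88 for Il6, -0.54 for Cebpd, -0.48 for Socs3, -0.38 for Cebpb, -0.22 for Il1b, -0.18 for Stat3 and -0.12 for Tnfaip6. With the peptide added they were -0.44 for Lcn2, -0.46 for Il6, -0.43 for Cebpd, -0.43 for Socs3, -0.34 for Cebpb, -0.27 for Il1b, -0.12 for Stat3 and 0.08 for Tnfaip6. The means for cyclosporine without the untreated day 3 array were -0.38 for Lcn2, -0.97 for Il6, -0.28 for Cebpd, -0.022 for Il1b, -0.10 for Stat3 and -0.079 for Tnfaip6. With the peptide added they were then 0.068 for Lcn2, -0.55 for Il6, -0.16 for Cebpd, -0.072 for Il1b, -0.036 for Stat3 and 0.13 for Tnfaip6. Without that array Socs3 was at -0.45 and Cebpb at -0.28 for cyclosporine, and at -0.40 and -0.25 with the peptide added. With or without it the fitted mean of Il6 was below 0 with both treatments. The same held for Saa3, Hp, Orm1, Lbp, Socs3, Cebpb, Cebpd, Stat3 and Il1b, with Il1b near 0 in both and Stat3 near 0 with the peptide added once that array was left out. Saa3, Hp, Orm1 and Lbp were chosen by these differences, so their signs are a description and no support for an effect. All the fitted means are means over the days. On day 7 Saa3, Hp, Lbp and Il1b read higher with the peptide added than in the untreated graft.

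Markers of other cell types also differed between treated and untreated grafts, in directions that depended on the cell type and the day. The summed intensity of 9 measured neutrophil markers was 12522, 12960 and 2360 in untreated grafts on days 1, 3 and 7, 5474, 6270 and 1827 with cyclosporine, and 6667, 6353 and 2775 with the peptide added. All 9 were lower in both treated grafts on days 1 and 3, and 3 of 9 on day 7, where 36.6%, 40.0% and 40.8% of all probe sets were. Adipocyte markers, 9 measured, summed to 6770, 13408 and 6402 in untreated grafts, 8471, 8402 and 7300 with cyclosporine, and 7015, 8504 and 9281 with the peptide added. All 9 were lower in both treated grafts on day 3, where 40.0% of all probe sets were, whereas 7 of 9 were higher in both on day 1. Lep, 1 of the 9, read 13.5 to 35.0 and never exceeded the 40th percentile in hearts. The sums were carried mainly by Fabp4, at 1002 to 4826, and Cfd, at 732 to 5722. On the T cell arrays the same markers summed to 5765 to 10989, so the sum is not particular to adipocytes. The untreated day 3 graft, highest for 5 of the 6 genes, was also highest in both marker sums. For neutrophil markers the untreated graft of day 1 was nearly as high, at 12522 against 12960. Macrophage markers, 12 measured, had sums that were higher with the day as A2m was. They ran from 26233 to 28757 on day 1, 36440 to 45651 on day 3 and 71487 to 74861 on day 7. Of the 12, 11 were lower in both treated grafts on day 3, where 40.0% of all probe sets were. On day 7 the untreated graft had the highest macrophage sum, where A2m was the lowest of that day. T cell markers, 10 measured, summed to 1399, 2844 and 20855 in untreated grafts on days 1, 3 and 7, 2463, 1810 and 25726 with cyclosporine, and 1751, 1948 and 25313 with the peptide added. On day 3 all 10 were lower in both treated grafts, where 40.0% of all probe sets were. Some of these day 3 readings were low, such as Trat1 at 14.6 to 43.6. On day 7, 9 of the 10 were higher in both, as A2m was, with no share of all probe sets to set beside it. The part of these cells in the differences of the 6 genes was not tested. In whole grafts, fewer cells of a type and less RNA per cell cannot be told apart.

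Of 12 measured hepatocyte markers, 8 never exceeded the 40th percentile of an array in any heart, including Alb, Apoa1, Fgb, Fga and Apob. The sums of all 12 ran from 1359 to 2204 and were carried mainly by Ttr, at 661.8 to 970.5, and Cyp2e1, at 83.0 to 659.4. Alb, which encodes albumin, read 20.0 to 50.8 in the hearts. The part of the 4 markers with higher readings in the values of the 6 genes was not tested. Mesothelial markers, 6 measured, summed to 1607, 3616 and 1376 in untreated grafts on days 1, 3 and 7, 2083, 2987 and 1821 with cyclosporine, and 2010, 3645 and 1736 with the peptide added. Fibroblast markers, 9 measured, summed to 60352, 102916 and 63109 in untreated grafts, 66510, 98868 and 76346 with cyclosporine, and 64184, 97919 and 89438 with the peptide added. Like Lbp, both sums were highest on day 3 in every group. The part of mesothelial cells and fibroblasts in the values of Lbp was not tested.

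**Figure D4:**
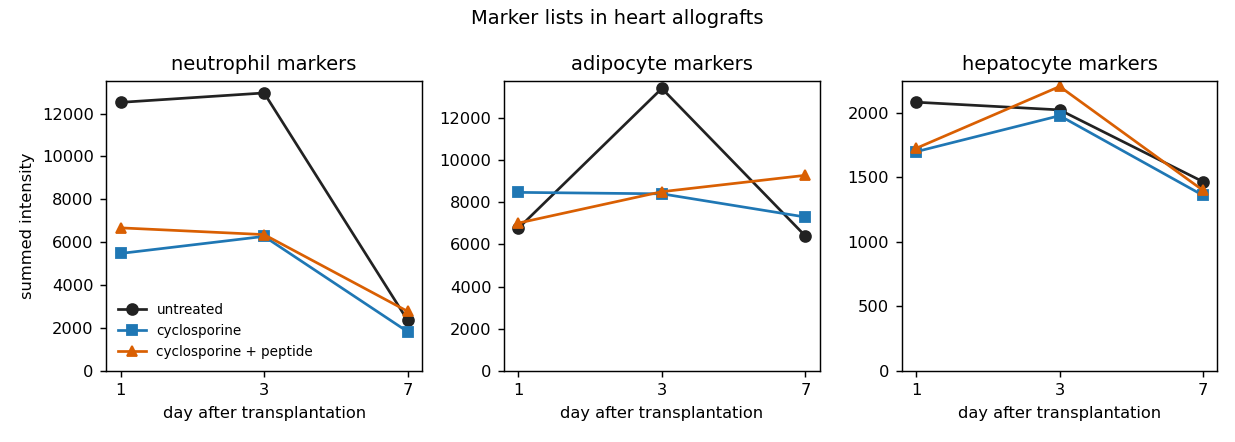
Summed intensity of neutrophil, adipocyte and hepatocyte markers in heart allografts against the day after transplantation, with days drawn at equal spacing and 1 array per point. Neutrophil sums of 12522 and 12960 in the untreated grafts of days 1 and 3 lie above all treated grafts, the adipocyte sum peaks at 13408 in the untreated day 3 graft, and hepatocyte sums stay between 1359 and 2204.

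Over the 9 heart arrays, which share days and treatments, Hp varied most closely with Orm1 (Pearson r = 0.862) and Serpina3n (0.858), followed by Lbp (0.773). Saa3 was less close, at 0.617 with Hp and 0.423 with Orm1. A2m stood apart, at -0.103 with Hp, -0.309 with Orm1, -0.106 with Serpina3n and 0.178 with Lbp, and was closest to Saa3 (0.503). Among 11153 other genes, those most like the mean of the 6 were Cgref1 (0.957), Slit3 (0.952), Emilin1 (0.946), Aldh18a1 (0.945) and Rpl23 (0.944). For Saa3 they were Cemip2 (0.959), Unc50 (0.921) and Nfkbiz (0.919), and for Hp Tnfrsf1a (0.956), Cdo1 (0.951) and Flrt2 (0.949). For Orm1 they were C1h11orf24 (0.957), Tead4 (0.957) and Tmem108 (0.945), and for Lbp Fkbp7 (0.975), Fkbp10 (0.974) and Nxn (0.973). For Serpina3n they were Tmem39a (0.941), Amigo3 (0.927) and Rasd1 (0.922), and for A2m Tmem176b (0.991), Cramp1 (0.99) and Cd4 (0.989). With 9 arrays and this many genes, high values of r are a description only.

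T cells were compared with the hearts as samples that took no part in choosing the genes. Lbp was lower in T cells and Hp was not called, and these are the 2 genes with signal above the 40th percentile on every T cell array. Lbp read 134 to 482 in the 9 T cell arrays against 1077 to 4733 in hearts, without overlap (log2 difference -3.23 ± 0.19, adjusted p = 1.75e-10, 9 arrays a tissue). Hp was at 0.18 ± 0.32 (adjusted p = 0.602) and, without the untreated day 1 T cell array, at -0.12 (adjusted p = 0.595). Lbp is thus 1 of 2, against 87.1% of 22327 probe sets called, 49.9% higher and 37.2% lower. Serpina3n, A2m and Orm1 were above the 40th percentile on 0 of 9 T cell arrays and Saa3 on 2 of 9. These 4 passed the filter through the hearts, so they are given as bounds without a test, with each T cell array held at or above its 40th percentile. Serpina3n read 33.5 to 52.1 in T cells against 1189 to 3981 in hearts, at least 10.5-fold higher in hearts. By the same bound the hearts were on average at least 3.46-fold higher for A2m, 2.29-fold for Saa3 and 1.42-fold for Orm1, the last 3 with some hearts below the percentile too. Over all probe sets the median was 0.15 higher in T cells, and 0.22 with quantile normalization over all arrays or 0.25 with each array centred on its median, and the Lbp difference was larger than these shifts.

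Of the 6 genes only Hp and Lbp were above the 40th percentile in all 9 T cell arrays, and only they were tested within T cells. Hp read 2087, 221 and 173 in T cells of untreated recipients on days 1, 3 and 7. With cyclosporine it read 208, 217 and 222, and with the peptide added 230, 258 and 223. The untreated day 1 array was 8.09 times the next highest. A gap of at least 8-fold, a cutoff just under the Hp ratio, was shown on that array by 10 of 19464 probe sets (0.0514%). Among these were the neutrophil markers S100a8, S100a9, Csf3r, Mmp8 and Il1r2. Cxcr2 had such a gap but did not pass the filter, and the markers Mmp9, Camp and Np4 fell short of 8-fold. The remaining 8 arrays spanned 173 to 258. Lbp read 482, 149 and 195 in T cells of untreated recipients. With cyclosporine it read 134, 185 and 232, and with the peptide added 139, 154 and 218. The untreated day 1 array was again highest, at 2.08 times the next.

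The other 4 genes were also highest on the untreated day 1 T cell array, so that all 6 were, as 16.8% of all probe sets were. Saa3 read 281 there and 200 in the untreated array of day 3, against 54.8 to 101 on the other 7. Orm1 ran from 48.7 to 88.4, A2m from 52.8 to 98.7 and Serpina3n from 33.5 to 52.1, below the 40th percentile of every T cell array (126 to 133). This array carried the neutrophil markers described above, with S100a9 at 17774 against 515 to 1892 on the others and the granule protease Mmp8 at 1949 against 125 to 179. Its summed signal of 4 B cell markers was also high, 22956 against 7000.1 to 14852. The part of neutrophils in its Hp signal was not tested.

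Treatment in T cells did not pass the test for either gene, and the signs depended on that array. For cyclosporine minus untreated, Hp was at -0.98 ± 0.66 (95% interval -2.51 to 0.55, adjusted p = 0.585) and Lbp at -0.41 ± 0.38 (adjusted p = 0.697). Without the untreated day 1 array they were at 0.15 and 0.23. For cyclosporine plus peptide minus untreated, Hp was at -0.85 ± 0.66 (adjusted p = 0.45) and Lbp at -0.49 ± 0.38 (adjusted p = 0.449), and without that array at 0.27 and 0.14. Peptide added to cyclosporine gave 0.13 ± 0.66 for Hp (adjusted p = 0.972) and -0.09 ± 0.38 for Lbp (adjusted p = 0.97). limma called 0 of 19464 probe sets (0%) in each of these 3 comparisons, with 2216, 4636 and 857 at an unadjusted p below 0.05. On day 1 all 6 genes were lower in both treated T cell arrays (29.7% of probe sets), on day 3 it was 2 of 6 (31.6%) and on day 7 1 of 6 (35.2%).

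Over time in T cells, Hp was at -0.98 ± 0.66 on day 3 (adjusted p = 0.674) and -1.14 ± 0.66 on day 7 (adjusted p = 0.324) relative to day 1. Without the untreated day 1 array these were 0.15 and -0.02. Lbp was at -0.35 ± 0.38 and 0.03 ± 0.38 (adjusted p = 0.792 and 0.975), or 0.28 and 0.66 without it. No member was called, against 0% of 19464 probe sets for day 3 (1615 at an unadjusted p below 0.05) and 0.575% for day 7. The change from day 1 to day 7 was also compared between hearts and T cells, where 44.2% of 22327 probe sets were called, 22.4% higher and 21.8% lower in hearts. A2m and Saa3 passed, with differences of the changes of 4.27 ± 0.25 (adjusted p = 3.24e-08) and 1.76 ± 0.68 (adjusted p = 0.0469). Without the untreated day 1 T cell array A2m was at 4.16 (adjusted p = 8.05e-08) and Saa3, at 1.54 (adjusted p = 0.0988), was no longer called. A2m was above the 40th percentile on 0 of the 9 T cell arrays and 0 of the 3 day 1 hearts, and Saa3 on 2 of 9 T cell arrays. Both passed the filter through the hearts, so these values mostly restate the change in hearts and nothing further is read from them.

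**Figure D5:**
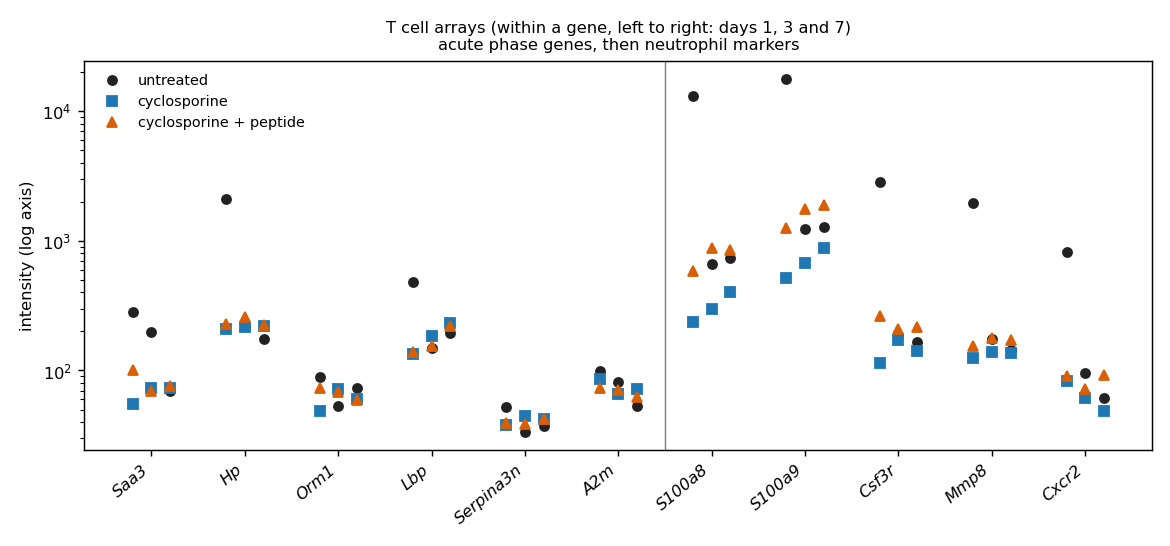
Intensity (log axis) of the 6 acute phase genes and, right of the line, 5 neutrophil markers on the 9 T cell arrays, with days 1, 3 and 7 from left to right within each gene. Each point is 1 array; the untreated day 1 array stands at 2087 for Hp and 17774 for S100a9, above all other T cell arrays.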

How the data were processed

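RNA of 9 heart allografts and 9 T cell samples was hybridised as biotin-labelled cRNA, per the labels' protocols. The values the authors deposited are intensities on a linear scale, 1 for each probe set of an array, with similar quartiles on all arrays. Software and normalization were not given in the sources used here. Of all intensities 0.138% lie below 0 and were set to 0, and log2(intensity + 16) was used without further scaling, which understates changes of weak genes. Of 31042 probe sets other than controls, 20826 carry 1 gene symbol in the platform annotation, 436 several and 9780 none.

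Treatment and day were fitted to the 9 arrays of each tissue, and tissue with tissue by day was added for all 18, with limma 3.58.1 in R 4.3.3 (trended spread, two-sided, Benjamini-Hochberg over the probe sets tested, adjusted p below 0.05). Tested probe sets exceeded the 40th percentile of signal on at least 3 arrays. There is 1 array per combination, so p-values measure only the spread left after the fitted terms. That spread mixes differences between arrays, which may be technical, with any change of the treatment difference from day to day. The number of arrays limits the precision. The fits were tested on simulated data with known changes. The genes, lists and tests were chosen with earlier results of these data known. From each list, genes past the threshold were named, at most 4 per comparison and direction by size, plus Il6, Il1b, Stat3, Socs3, Cebpb, Cebpd, Lcn2 and Tnfaip6. Lists share some genes. Alternatives were other scalings, pseudocounts of 1 and 64, no filter or the 60th percentile, no trend, no day factor, and leaving out arrays.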

Additional observations from a re-analysis of the deposited data

Results flagged for a closer look

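The change from day 1 to day 7 differed between hearts and T cells for A2m and Saa3, by the tissue by day term of limma over 22327 probe sets (44.2% called). For A2m the change was 4.27 larger in hearts on the log2 scale (adjusted p = 3.24e-08), with A2m above the 40th percentile on 0 of 9 T cell arrays and 0 of 3 day 1 hearts. For Saa3 it was 1.76 larger (adjusted p = 0.0469), a call lost with no filter, with no trend, with a pseudocount of 64, with either quantile normalization and without the untreated day 1 T cell array (adjusted p between 0.0447 and 0.0988 over the alternatives), and Saa3 was above that percentile on 2 of 9 T cell arrays. Both genes passed the filter through the hearts, so the values mostly restate the change in hearts.

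Within hearts, the treatment difference of Serpina3n and A2m took opposite signs on different days, and these differences were not tested. For Serpina3n the mean difference of the treated grafts from the untreated graft was 1.58 higher on day 7 than on day 3. For A2m it was 0.93 higher on day 7 than on day 1 and 0.83 higher than on day 3.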

How the results depend on the processing

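In hearts, the calls of Lbp and A2m for day 3 minus day 1 and day 7 minus day 3 held in all 12 alternatives run, and that of Orm1 for day 7 minus day 3 in all 11. The number of genes called for day 7 minus day 1 went from 2 to 1 with the 60th percentile filter, which left 4 genes tested. It went to 4 without the untreated day 3 heart array, where 31.3% of all probe sets were called higher and 34.6% lower. That alternative was chosen after seeing the data, like that without the untreated day 1 T cell array. For day 7 minus day 3 it went from 4 to 2 with the 60th percentile filter. Leaving out the arrays of 1 treatment at a time gave 2 to 3 calls for day 3 minus day 1, 2 to 3 for day 7 minus day 1 and 3 to 4 for day 7 minus day 3. Among the tested differences, signs changed only for those that had not passed. Over such omissions, Serpina3n ran from -0.045 to 0.72 for day 3 minus day 1 (-0.077 without the untreated day 3 array), Lbp from -0.049 to 0.19 for day 7 minus day 1 and Saa3 from -0.70 to 0.95 for day 7 minus day 3. Leaving out the arrays of 1 day at a time, Hp in T cells minus heart ran from -0.24 to 0.65 (-0.12 without the untreated day 1 T cell array). In T cells, cyclosporine minus untreated ran from -1.63 to 0.15 for Hp and from -0.75 to 0.26 for Lbp (0.15 and 0.23 without that array). Cyclosporine plus peptide minus untreated ran from -1.44 to 0.27 for Hp and from -0.82 to 0.10 for Lbp (0.27 and 0.14 without it). Leaving out the arrays of 1 treatment, day 3 minus day 1 in T cells ran from -1.54 to 0.11 for Hp and from -0.73 to 0.28 for Lbp (0.15 and 0.28 without that array). Day 7 minus day 1 ran from -1.76 to 0.024 for Hp and from -0.32 to 0.66 for Lbp, which was at -0.26 without the cyclosporine plus peptide arrays and at -0.007 with a pseudocount of 64. The Hp fall from day 3 to day 7 in hearts lost its call without the untreated arrays (-0.70) or the cyclosporine arrays (-1.21). The heart minus T cells comparison of day 7 minus day 1, with alternatives chosen after seeing the data, had 2 calls, and 1 with either quantile normalization, a pseudocount of 64, no filter, no trend or without the untreated day 1 T cell array, where Hp was at -0.16 and Lbp at -0.46. Where no array is named, the cause was not tested. Averaging the probe sets of a gene was not run, since each gene has 1, and under the 60th percentile filter Hp and Orm1 in hearts, and Hp and Lbp in T cells, were not tested. Low signal limits A2m on day 1 and Orm1 on day 7 in hearts and Saa3, Orm1, Serpina3n and A2m in T cells. In hearts it also limits genes of the other lists, which were given no bounds. Among them, Fgg and Lifr were below the 40th percentile on every day 7 array and Hpx on every day 1 array. In both treated grafts Il6 was below it on day 7, and Tnf on days 1 and 3.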
